A study of Homo sapiens with 12 samples.

Results

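The plasminogen activators, matrix proteases and inhibitors examined here are a named set of 9 genes: PLAU, PLAUR, PLAT, SERPINE2, MMP1, MMP7, MMP14, TIMP1 and TIMP3. They were taken by symbol, with earlier results of these data known, and all 9 were found among the 32269 genes of the count matrix. RNA was sequenced from AGS, labelled as a gastric adenocarcinoma epithelial line, and MKN1, labelled as a gastric adenosquamous carcinoma. Cells of each line were either left untreated or treated with cantharidin sodium. Cantharidin is a terpenoid toxin of blister beetles and a known inhibitor of the protein phosphatases PP2A and PP1. The 4 groups of 3 libraries were untreated AGS, treated AGS, untreated MKN1 and treated MKN1, and both lines are labelled wild type. Neither the dose nor the duration is given in the sources used here, nor is a vehicle for the untreated cells. Each line is a single established cell line, so a difference between them compares these lines only. The design text calls the libraries biological replicates, and nothing else says that they came from separate cultures. The p-values below therefore measure the spread between these libraries, which may be technical.

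Urokinase (PLAU) and tissue plasminogen activator (PLAT) cleave plasminogen to plasmin, a broad protease that degrades fibrin and matrix proteins and activates some matrix metalloproteinases. The urokinase receptor PLAUR holds urokinase on the cell surface, and serpins such as SERPINE2 block the activators. Matrix metalloproteinases cut collagens and other matrix proteins and are held in check by the tissue inhibitors of metalloproteinases (TIMPs), and in gastric carcinoma both systems are studied for their part in invasion.

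Library totals ran from 28604966 to 51604215 counts, so that 3 counts, the floor used here for a value of 0, stood for 0.0591 to 0.109 CPM (counts per 1000000 counted reads, after TMM scaling). Correlations of log2 CPM between AGS replicates lay between 0.977 and 0.9805. MKN1 untreated replicate 3 stood apart, with 0.961 and 0.9636 to its 2 partners, which correlated at 0.9779 with each other. Where leaving it out changed a call or a sign below, the value without it is given. All 8 markers of simple epithelium reached 1 CPM in every group, with sums of 4660 to 6730 CPM. Single markers differed, with 2 of the 8 higher and 5 lower in untreated MKN1, against 34.9% and 31.4% of all tested genes. EPCAM was at 429 CPM in untreated AGS and 21.8 CPM in untreated MKN1. All 8 squamous markers did so in MKN1 and 2 of 8 in AGS, which goes with the labels of the lines. Of other sources of matrix proteases, 2 to 3 of 7 fibroblast markers, 0 to 1 of 4 endothelial markers and 3 of 6 leukocyte markers reached 1 CPM. The fibroblast sum was 58.5 to 148 CPM in MKN1, with LUM at 104, COL1A1 at 12.1 and DCN at 7.54 CPM untreated. In AGS it was 61.1 to 82.5 CPM, with PDGFRA at 41.9, COL1A1 at 21.7 and PDGFRB at 1.65 CPM untreated. The leukocyte sum was 1030 to 1580 CPM in AGS, with LYZ at 1260 and CSF1R at 5.94 CPM untreated, and 23 to 58.9 CPM in MKN1, with CD68 at 41.6, CD14 at 6.31 and CSF1R at 2.28 CPM untreated. PTPRC, the defining leukocyte marker, had a mean of at most 0.275 CPM in any group. The part of other cell types in the results was not tested. In RNA from whole cultures, fewer cells that express a gene and less of its RNA per cell cannot be told apart.

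Positions are from GENCODE release 29 on GRCh38. PLAU (ENSG00000122861) lies at chr10:73909177-73917497 on the plus strand, and 31.1% of its exon bases overlap C10orf55 on the opposite strand. The library kit does not mark strand and C10orf55 was not analysed here, so reads of these 2 genes cannot be told apart. PLAUR (ENSG00000011422) lies at chr19:43646095-43670547 and SERPINE2 (ENSG00000135919) at chr2:223975112-224039319, both on the minus strand. On chromosome 11, MMP7 (ENSG00000137673) spans chr11:102520508-102530753 and MMP1 (ENSG00000196611) chr11:102789920-102798160, both on the minus strand. MMP1 shares 7.6% of its exon bases with the pseudogene WTAPP1, which held 0 to 7 counts in a library against 9 to 20641 for MMP1. MMP14 (ENSG00000157227) lies at chr14:22836557-22849027, TIMP1 (ENSG00000102265) at chrX:47582313-47586789 within SYN1, and TIMP3 (ENSG00000100234) at chr22:32801701-32863043 within SYN3, all on the plus strand. TIMP1 and TIMP3 share no exon bases with the synapsin genes that contain them.

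Promoter windows were available for 7 of the 9 members, as 9 windows of 250 bases ending just before a transcription start (RefSeq, GRCh38.p14). Those of PLAU and TIMP3, the 2 members that rose in AGS, are shown with each GC box (GGGCGG on either strand) in capitals, and that of MMP7 with its AP-1 site (TGANTCA on either strand) in capitals. The PLAU window is chr10:73910882-73911131 on the plus strand, before the second of the 2 PLAU starts in the table. The TIMP3 window is chr22:32801455-32801704 on the plus strand, and the MMP7 window is chr11:102530748-102530997 on the minus strand.
PLAU: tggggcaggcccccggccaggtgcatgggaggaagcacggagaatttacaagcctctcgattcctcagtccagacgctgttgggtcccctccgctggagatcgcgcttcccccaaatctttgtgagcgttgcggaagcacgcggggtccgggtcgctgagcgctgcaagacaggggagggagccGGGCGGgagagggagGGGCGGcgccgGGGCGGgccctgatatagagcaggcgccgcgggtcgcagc
TIMP3: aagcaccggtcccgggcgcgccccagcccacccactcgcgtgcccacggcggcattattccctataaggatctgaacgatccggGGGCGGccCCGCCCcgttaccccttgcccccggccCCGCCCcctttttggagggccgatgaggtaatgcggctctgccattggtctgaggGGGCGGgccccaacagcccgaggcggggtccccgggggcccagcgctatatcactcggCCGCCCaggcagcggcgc
MMP7: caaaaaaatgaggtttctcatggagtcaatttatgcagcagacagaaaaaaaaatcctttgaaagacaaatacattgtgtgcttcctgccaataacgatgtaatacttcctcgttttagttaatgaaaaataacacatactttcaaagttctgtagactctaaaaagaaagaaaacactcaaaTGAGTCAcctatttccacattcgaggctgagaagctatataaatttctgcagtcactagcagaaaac
The PLAU window shown had 68.8% G and C and 3 GC boxes, whereas the window before the first PLAU start (chr10:73910360-73910609) had 46.8% and 0 GC boxes. The TIMP3 window had 72.4% and 5 GC boxes, and the MMP7 window had 33.6% and no GC box. GC boxes were in 6 of the 9 windows of the set, against 42.6% of all 35116 windows of this length. The AP-1 letters were in 2 of the 9, those of MMP7 (last base 61 bases before the start) and PLAUR, against 6.57% of all windows. All 250 bases of the PLAUR window lay within exons annotated for PLAUR itself. The same held for 164 bases of a SERPINE2 window and 123 of the TIMP1 window, within their own exons. MMP7 also held the only TATAAA match in the set, which 10.7% of all windows hold. These matches describe letters and say nothing of whether a factor was bound.

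Between the untreated lines 6 of the 9 members differed. The plasminogen activators PLAU and PLAT, the protease inhibitor SERPINE2 and the metalloproteinase inhibitor TIMP3 were higher in MKN1, and the metalloproteinases MMP1 (interstitial collagenase) and MMP14 (a membrane-bound metalloproteinase) were higher in AGS. PLAUR, MMP7 (matrilysin) and TIMP1 did not pass the test between the lines. Of the 9 members, 4 were higher and 2 lower in MKN1 at an adjusted p below 0.05 (edgeR quasi-likelihood test, Benjamini-Hochberg adjusted over all 20280 genes tested). Of all tested genes 66.3% passed, 34.9% higher and 31.4% lower, so the share of members is that of the background. SERPINE2 and TIMP3 passed the filter on low counts only through MKN1, so that a difference in them was bound to be seen. PLAU passed it through MKN1 and treated AGS, and of the untreated groups only MKN1 reached it.

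PLAU had 2, 4 and 0 counts in untreated AGS and 2199, 2333 and 2106 in untreated MKN1. Scaled by library size these were 0.0394, 0.114 and 0 CPM against 74.7, 85 and 64.5 CPM. The ratio of summed counts, scaled by library size, was 1540 (95% interval 708 to 4200, counting error only), with an adjusted p of 5.98e-10 by edgeR. PLAT (ENSG00000104368, chr8:42175233-42207724 on the minus strand) was at 3.96, 4.57 and 4.31 CPM in AGS and 351, 371 and 639 CPM in MKN1, a 106-fold difference (log2 6.73, SE 0.31, adjusted p = 8.22e-10 by edgeR). SERPINE2, also called protease nexin 1, was at 0.197, 0.0571 and 0.18 CPM in AGS and 454, 413 and 248 CPM in MKN1. TIMP3, the inhibitor that binds to the matrix, was at 0.0394, 0.0571 and 0 CPM in AGS and 404, 408 and 506 CPM in MKN1. PLAU, SERPINE2 and TIMP3 were thus near 0 in untreated AGS, which is taken here as a group mean below 1 CPM.

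MMP1 went the other way, at 385, 281 and 289 CPM in AGS and 3.97, 2.84 and 0.276 CPM in MKN1. It was 136-fold lower in MKN1 (log2 -7.09, SE 0.65, adjusted p = 6.02e-07 by edgeR), with -6.54 without MKN1 untreated replicate 3. MMP14 was at 232, 281 and 285 CPM in AGS and 26.5, 29.9 and 37.5 CPM in MKN1, which is 8.51-fold lower (log2 -3.09, SE 0.16, adjusted p = 2.77e-09 by edgeR). In neither gene did any MKN1 library reach the lowest AGS library. The groups were apart for 7 of the 9 members, against 71.4% of all tested genes. PLAUR had almost the same mean in both lines, 61.4 ± 8.99 CPM (SD, n = 3) in AGS and 59.4 ± 7.4 in MKN1, and the sign of its difference changed with the scaling and without MKN1 untreated replicate 3 (log2 -0.05, and 0.05 without). TIMP1 was at 95.8, 88.9 and 115 CPM in AGS and 155, 195 and 64.4 CPM in MKN1 (log2 0.47, SE 0.29, adjusted p = 0.173 by edgeR). Its low MKN1 value came from replicate 3, and without that library TIMP1 passed the test as higher in MKN1 (log2 0.81, adjusted p = 0.000807 by edgeR).

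**Figure D1:**
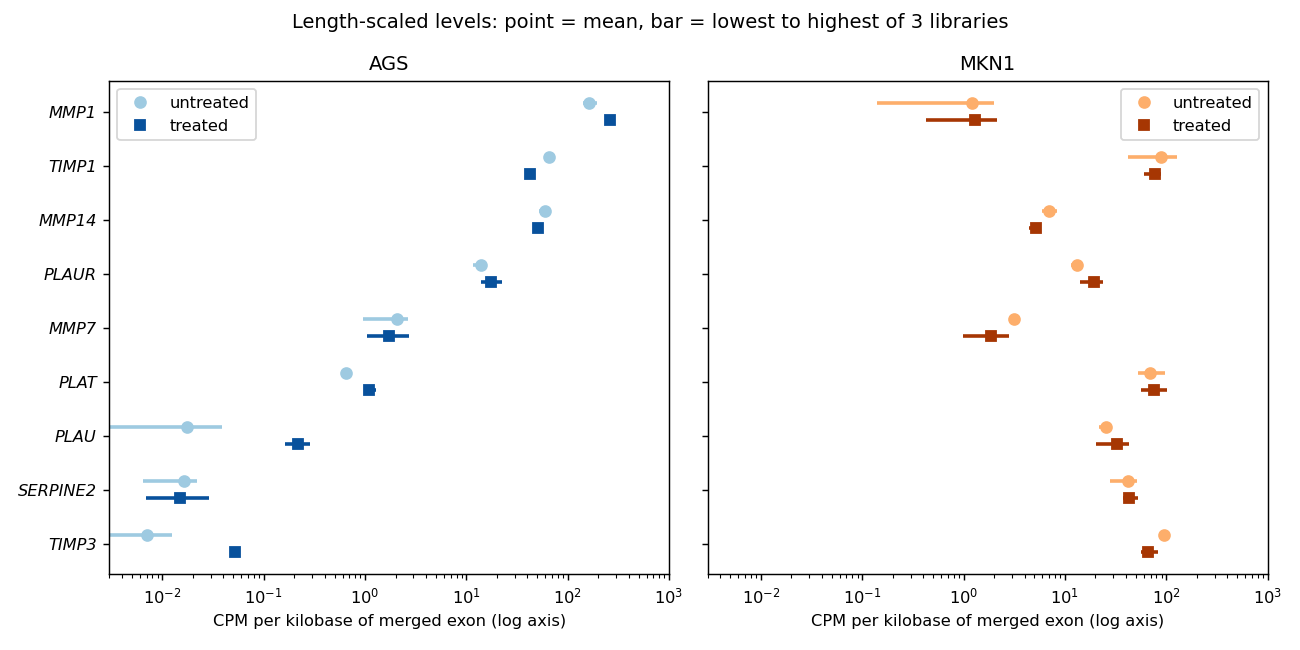
Mean CPM per kilobase of merged exon for each gene (log axis), with a bar from the lowest to the highest of 3 libraries, in AGS (left) and MKN1 (right). MMP1 led in AGS at 161 untreated and came last in MKN1 at 1.2, while TIMP3 led in untreated MKN1 at 95.5 and came last in untreated AGS at 0.00699. Bars that run off the left edge reach 0.

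Levels were scaled per kilobase of merged exon to set different genes roughly side by side. For some genes the merged length exceeds the longest transcript, as in PLAUR (4457 against 1610 bases), and in TIMP3 it does not (4603 bases for both). The orders below hold for the merged length, and others were not computed. On this scale MMP1 was the most abundant member in untreated AGS at 161 CPM per kb. TIMP1 at 64.8 and MMP14 at 59.7 CPM per kb followed with overlapping ranges, then PLAUR at 13.8, MMP7 at 2.05 and PLAT at 0.646. PLAU, SERPINE2 and TIMP3 closed the order at 0.0174, 0.0163 and 0.00699 CPM per kb, with overlapping ranges. In untreated MKN1 TIMP3 at 95.5, TIMP1 at 89.7 and PLAT at 68.5 CPM per kb were at the top, with overlapping ranges. SERPINE2 at 41.8 and PLAU at 25.3 CPM per kb came next, below all PLAT libraries and just overlapping each other. PLAUR at 13.3, MMP14 at 7.01, MMP7 at 3.12 and MMP1 at 1.2 CPM per kb closed the order, with no overlap between neighbours. In treated AGS MMP1 led at 263 CPM per kb, and MMP14 at 50.4 lay above TIMP1 at 42.1 in every library. At the low end of treated AGS, PLAU at 0.217, TIMP3 at 0.0526 and SERPINE2 at 0.0151 CPM per kb no longer overlapped. In treated MKN1 TIMP1 at 78.3, PLAT at 75.4 and TIMP3 at 66.1 CPM per kb overlapped at the top, and MMP7 at 1.86 and MMP1 at 1.29 CPM per kb overlapped at the bottom.

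In AGS, cantharidin sodium was accompanied by higher PLAU and TIMP3 mRNA, both from near 0 and both to levels that stayed below 1 CPM. PLAT, MMP1 and TIMP1 separated treated from untreated libraries completely but did not pass the test of the fit over both lines. Of the 9 members, 2 were higher and 0 lower at an adjusted p below 0.05 by edgeR, against 20.8% of all tested genes, 9.21% higher and 11.6% lower. At an unadjusted p below 0.05, 3 were higher and 0 lower, against 15.9% and 18.6% of all tested genes. The groups did not overlap for 5 of the 9 members, against 52.4% of all tested genes.

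**Figure D2:**
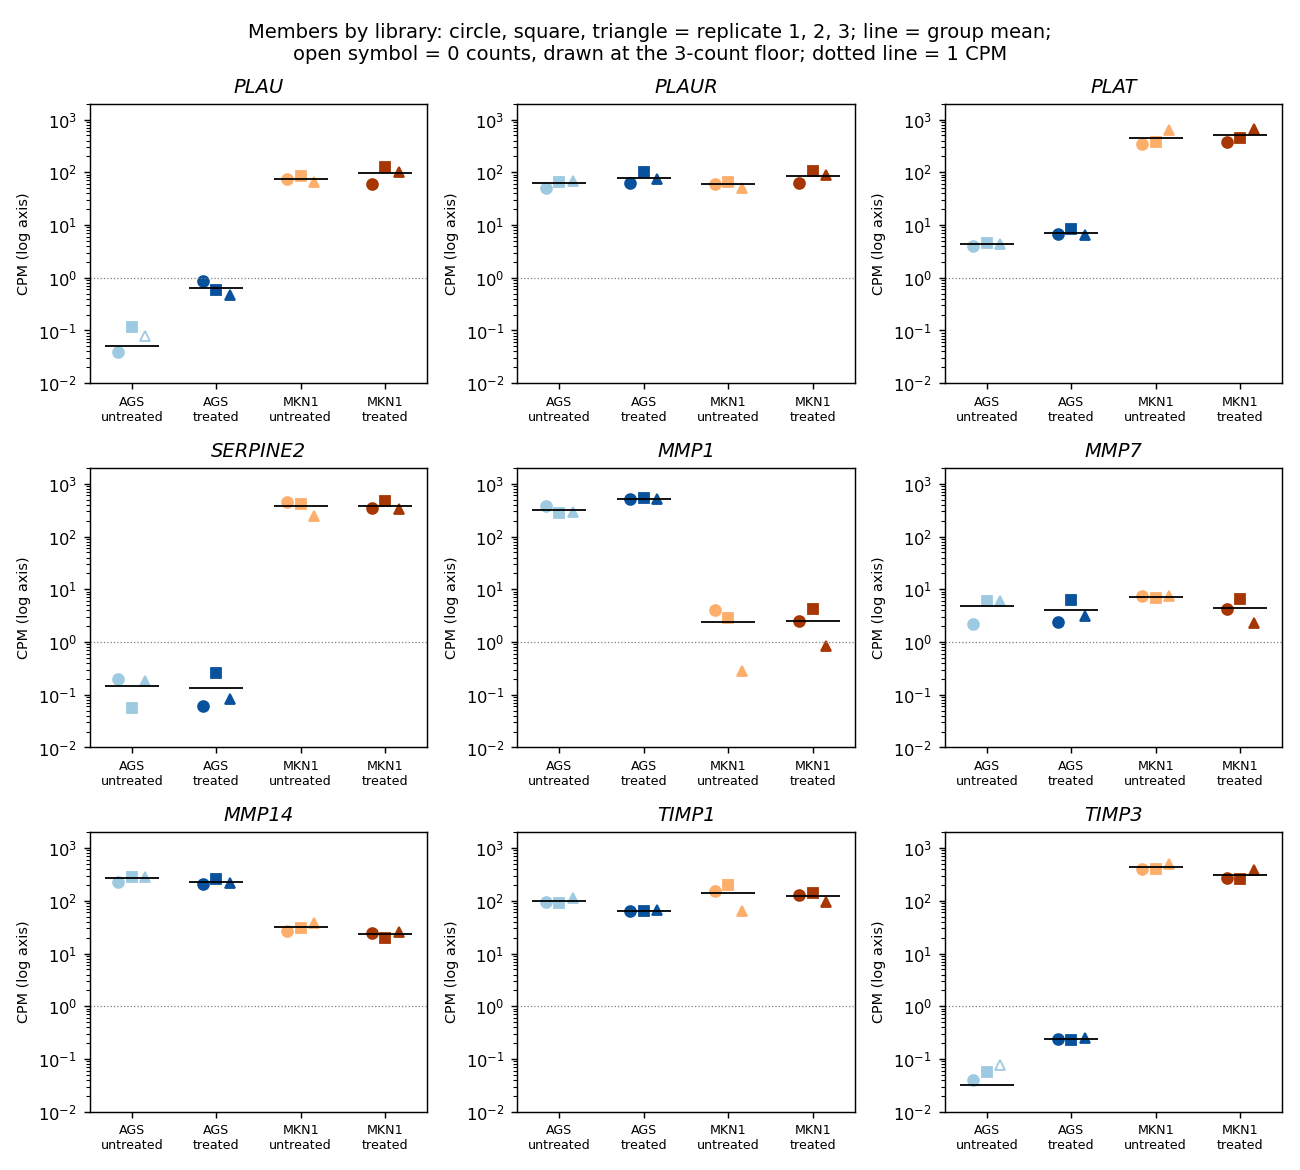
CPM of each of the 9 genes in each of the 12 libraries (log axis), with the group mean as a line, a symbol per replicate number and open symbols for libraries with 0 counts, drawn at the 3-count floor. PLAU and TIMP3 in AGS sat below 1 CPM with the treated libraries above the untreated ones, and MMP1 in MKN1 was lowest in replicate 3 of both groups.

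PLAU rose from 2, 4 and 0 counts in the untreated AGS libraries to 28, 23 and 17 in the treated ones, or to 0.851, 0.593 and 0.475 CPM. All treated libraries lay above all untreated ones. The fitted log2 fold change was 3.63 (SE 0.67, 95% interval 2.18 to 5.07, adjusted p = 0.00338 by edgeR), and the ratio of the summed counts was 13.2 (5.75 to 37.1, counting error only). The PLAU call held in all 21 alternative analyses, between 3.11 and 4.63. In the fit of the AGS libraries alone this was bound to be so, because PLAU passed the filter there only through its treated libraries. Treated AGS, with a mean of 0.64 ± 0.192 CPM (SD, n = 3), remained below untreated MKN1 with 74.7 ± 10.3 CPM.

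PLAT was at 3.96, 4.57 and 4.31 CPM in untreated AGS and at 6.72, 8.46 and 6.43 CPM in treated AGS. The treated libraries were all higher (log2 0.76, SE 0.26, adjusted p = 0.0588 by edgeR). PLAUR, the urokinase receptor, ranged from 51.3 to 68.2 CPM in untreated and from 62.6 to 101 CPM in treated libraries, which overlapped (log2 0.36, SE 0.21, adjusted p = 0.232 by edgeR). SERPINE2 remained near 0 with 10, 2 and 7 counts untreated and 2, 10 and 3 treated, a ratio of 0.917 (0.434 to 1.9, counting error only).

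Among the metalloproteinases, MMP1 was at 385, 281 and 289 CPM untreated and 508, 532 and 516 CPM treated. Every treated library was above every untreated one, with a fitted log2 change of 0.71 (SE 0.48, adjusted p = 0.319 by edgeR). MMP14 ranged from 232 to 285 CPM untreated and from 209 to 254 CPM treated (log2 -0.24, SE 0.15, adjusted p = 0.267 by edgeR). MMP7 ranged from 2.2 to 6.11 CPM untreated and from 2.43 to 6.35 CPM treated (log2 -0.25, SE 0.44, adjusted p = 0.727 by edgeR). Both overlapped between the groups.

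The 2 TIMPs had opposite signs in AGS. TIMP3 rose from 2, 2 and 0 counts to 8, 9 and 9 counts, or from 0.0394, 0.0571 and 0 CPM to 0.243, 0.232 and 0.252 CPM. The log2 fold change was 2.79 (SE 0.61, 95% interval 1.47 to 4.11, adjusted p = 0.0081 by edgeR), and the ratio of summed counts was 7.55 (2.62 to 29.8, counting error only). Under limma voom its adjusted p was 0.0528 and the call was lost. TIMP3 passed the filter on low counts only through MKN1, and the fit took its spread from the libraries of both lines. TIMP1, which inhibits soluble metalloproteinases, was at 95.8, 88.9 and 115 CPM untreated and at 64.5, 64.7 and 65.5 CPM treated. All treated libraries were lower (log2 -0.62, SE 0.29, adjusted p = 0.152 by edgeR).

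Calls for PLAT, MMP1 and TIMP1 in AGS depended on which libraries set the spread. In a fit of the AGS libraries alone, in which SERPINE2 and TIMP3 did not pass the filter on low counts, PLAT (log2 0.75, adjusted p = 0.00215 by edgeR), MMP1 (log2 0.70, adjusted p = 0.000666) and TIMP1 (log2 -0.62, adjusted p = 0.000469) passed. In that fit 48.3% of the 17345 genes tested passed, 23.3% higher and 25% lower, against 3 members higher (PLAU among them) and 1 lower. PLAU passed the filter there only through its treated libraries, so that a rise in it was bound to be seen. Leaving out MKN1 untreated replicate 3 from the fit over both lines gave adjusted p-values of 0.0185 for PLAT and 0.0102 for TIMP1 by edgeR. PLAT also passed with the DESeq2 test (adjusted p = 0.0237) and without MKN1 treated replicate 3 (adjusted p = 0.0328 by edgeR).

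Other genes were also high in MKN1 and near 0 in untreated AGS. Of those given here, only KRT5 gained counts in every treated AGS library. KRT5, a squamous keratin, had 0 counts in each untreated and 4, 2 and 4 in the treated AGS libraries. KRT14, its partner keratin, had 11, 9 and 17 counts untreated and 3, 5 and 11 treated. CTSL, which encodes the lysosomal protease cathepsin L, had 2, 0 and 0 counts untreated and 0, 9 and 0 treated, and was at 624 CPM in untreated MKN1. SERPINE2, with 32788 summed counts in untreated MKN1 against 6638 for PLAU, had 19 summed counts in untreated and 15 in treated AGS. The part of trace RNA from other libraries in the PLAU and TIMP3 counts was not tested.

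In MKN1 0 of the 9 members passed the edgeR test. At an unadjusted p below 0.05, PLAUR was higher and MMP14 and TIMP3 were lower, against 11.2% of all tested genes higher and 12.2% lower. Of all tested genes 6.7% passed in this line, 2.8% higher and 3.9% lower. In a fit of the MKN1 libraries alone, 0 members and 0.184% of 18484 genes passed. The DESeq2 test and limma voom each called 1 member, TIMP3, lower, against 7.1% and 4.6% of all tested genes. The groups did not overlap for 3 of the 9 members (MMP7, MMP14 and TIMP3), against 21.4% of all tested genes.

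TIMP3 was at 404, 408 and 506 CPM in untreated MKN1 and at 267, 260 and 386 CPM in treated MKN1. All treated libraries were below all untreated ones (log2 -0.53, SE 0.17, 95% interval -0.89 to -0.17, adjusted p = 0.077 by edgeR). The adjusted p was 0.0494 with DESeq2, 0.0401 with limma voom and 0.0183 by edgeR without MKN1 treated replicate 3, and 0.109 by edgeR without MKN1 untreated replicate 3. TIMP1 was at 155, 195 and 64.4 CPM untreated and 130, 138 and 93.3 CPM treated. Untreated replicate 3 was the lowest library of the 6 (log2 -0.20, SE 0.29, adjusted p = 0.734 by edgeR), and without it TIMP1 passed as lower in treated cells (log2 -0.54, adjusted p = 0.0445 by edgeR).

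PLAU was at 74.7, 85 and 64.5 CPM in untreated and 60, 126 and 101 CPM in treated MKN1, where the lowest treated library lay below all untreated ones (log2 0.36, SE 0.25, adjusted p = 0.417 by edgeR). PLAUR was at 61.2, 65.8 and 51.3 CPM untreated and 63.2, 107 and 88.5 CPM treated (log2 0.54, SE 0.21, adjusted p = 0.138 by edgeR). For both genes treated replicate 1 was the lowest of its group, and without it PLAUR passed (log2 0.72, adjusted p = 0.0476 by edgeR). PLAT was at 351, 371 and 639 CPM untreated and 373, 449 and 674 CPM treated, and SERPINE2 at 454, 413 and 248 CPM untreated and 352, 468 and 331 CPM treated. Their log2 fold changes were 0.14 (SE 0.24, adjusted p = 0.778 by edgeR) and 0.05 (SE 0.23, adjusted p = 0.932). Without untreated replicate 3 they were 0.46 and -0.18. In both groups PLAT was highest and SERPINE2 lowest in replicate 3.

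MMP14 ranged from 26.5 to 37.5 CPM in untreated and from 19.7 to 25.4 CPM in treated MKN1 (log2 -0.42, SE 0.15, adjusted p = 0.114 by edgeR). MMP7 ranged from 6.82 to 7.54 CPM untreated and from 2.29 to 6.53 CPM treated (log2 -0.75, SE 0.45, adjusted p = 0.337 by edgeR). Treated libraries lay below untreated ones for both. MMP1 was at 3.97, 2.84 and 0.276 CPM untreated and 2.52, 4.26 and 0.848 CPM treated, from 117, 78 and 9 and 83, 130 and 33 counts. Replicate 3 was the lowest library of both groups, and the log2 fold change was 0.10 (SE 0.61) over all libraries and -0.46 without untreated replicate 3.

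**Figure D3:**
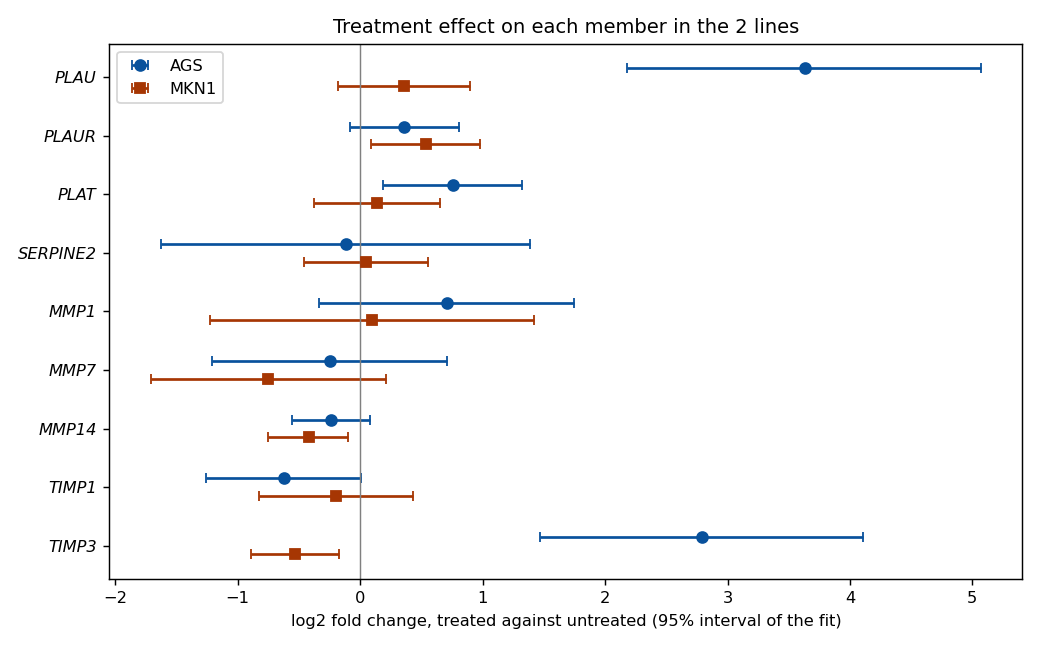
Log2 fold change of treated against untreated cells for each gene in AGS (circles) and MKN1 (squares), with the 95% interval of the fit. PLAU at 3.63 and TIMP3 at 2.79 in AGS stood apart from the other values, which lay between -0.75 and 0.76.

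The treatment effect differed between the lines for PLAU and TIMP3. For PLAU the effect in MKN1 minus that in AGS came to -3.27 on the log2 scale (SE 0.74, adjusted p = 0.0105 by edgeR), and for TIMP3 it was -3.32 (SE 0.63, adjusted p = 0.00452 by edgeR). Under limma voom the PLAU difference was -3.58 with an adjusted p of 0.0675. TIMP3 was tested only because its MKN1 counts passed the filter, and its AGS effect rests on 4 summed counts untreated and 26 treated. Of the 9 members, 2 had a lower effect in MKN1 and 0 a higher one, against 7.3% and 8.38% of all tested genes (15.7% in either direction). The other 7 did not pass, and their intervals were wide enough to hold sizeable differences, from -1.38 to 0.15 for PLAT and from -2.3 to 1.08 for MMP1. The narrowest was that of MMP14, from -0.64 to 0.28. SERPINE2 changed sign without MKN1 untreated replicate 3, from 0.16 to -0.06.

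Outside the 9 members, 3 lists of the same pathways were counted. Of 12 other plasminogen system genes, 11 were tested. In AGS 3 were higher and 2 lower, against 9.21% and 11.6% of all tested genes. The median log2 fold change was -0.24 against -0.01 for all tested genes. PLGRKT, which encodes a plasminogen receptor, rose from 5.04 ± 0.251 to 9.02 ± 1.1 CPM (SD, n = 3; log2 0.84, SE 0.15, adjusted p = 0.00336 by edgeR). ENO1, a glycolytic enzyme that also binds plasminogen at the cell surface, fell from 2010 ± 191 to 1250 ± 57.1 CPM (SD, n = 3; log2 -0.68, adjusted p = 0.00522 by edgeR). F3, which encodes tissue factor, rose from 18.2 ± 0.984 to 37.8 ± 5.97 CPM (SD, n = 3; log2 1.06, SE 0.31, adjusted p = 0.0303 by edgeR), a call lost in 6 of 21 alternatives, 5 of which left out an AGS library (adjusted p up to 0.102 by edgeR).

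In MKN1, 0 of these 11 genes were higher and 1 was lower, against 2.8% and 3.9% of all tested genes. Their median was -0.27 against 0.01 for all tested genes. The 1 gene was F3, at 933, 779 and 287 CPM untreated and 277, 345 and 310 CPM treated (log2 -1.10, SE 0.30, adjusted p = 0.0487 by edgeR). Untreated replicate 3 lay among the treated libraries, and without that library the log2 fold change was -1.47 (adjusted p = 0.000141 by edgeR). The call was lost in 16 of 21 alternatives, among them the omission of untreated replicate 1 (log2 -0.78, adjusted p = 0.165 by edgeR). The effects differed between the lines for 4 of the 11, against 15.7% of all tested genes. Among the 4 were F3 (MKN1 minus AGS -2.16, adjusted p = 0.00606 by edgeR), PLGRKT (-1.24, adjusted p = 0.00295) and, in the other direction, ENO1 (0.75, adjusted p = 0.0203). In untreated cells 6 of the 11 were higher and 2 lower in MKN1, against 34.9% and 31.4% of all tested genes. F3 was at 666 ± 338 CPM in untreated MKN1 against 18.2 ± 0.984 CPM in untreated AGS (SD, n = 3).

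Of 20 other metalloproteinases 16 were in the matrix and 14 were tested. In AGS 0 were higher and 2 lower, against 9.21% and 11.6% of all tested genes. The 2 were MMP2 and MMP11, both below 1 CPM in each AGS group, and the list's median was -0.26. In MKN1 0 passed in either direction, against 6.7% of all tested genes, with a median of -0.25. MMP2 (gelatinase A), which MMP14 activates, was at 21.9 ± 1.37 CPM in untreated MKN1 and 16.3 ± 0.556 CPM in treated MKN1, and at 0.312 ± 0.0743 CPM in untreated AGS (SD, n = 3). Its activator MMP14 was thus high in the line where MMP2 was near 0. Between the untreated lines 6 of the 14 were higher and 4 lower in MKN1, against 34.9% and 31.4% of all tested genes. MMP16 was at 16.3 against 0.0844 CPM, and MMP17 at 8.25 CPM in MKN1 with 0 counts in each untreated AGS library. Both were among the higher genes and are membrane-bound like MMP14. Both held at most 5 counts in any AGS library, so they entered the test through MKN1 and a difference was bound to be seen. MMP9 was not found by symbol in the count matrix, so it was not analysed here.

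Of 21 other inhibitors, activators and surface proteases, 20 were tested. In AGS 3 were higher and 2 lower, against 9.21% and 11.6% of all tested genes, with a median of 0.07. RECK, a membrane-anchored inhibitor of metalloproteinases, was at 2.48, 2.91 and 2.85 CPM untreated and at 5.14, 5.96 and 5 CPM treated AGS, and rose by 0.97 on the log2 scale (SE 0.21, adjusted p = 0.00686 by edgeR). PCSK5, a proprotein convertase, rose from 34.1 ± 2.38 to 56.4 ± 2.54 CPM (SD, n = 3; log2 0.72, adjusted p = 0.00423 by edgeR). CTSD, which encodes cathepsin D, fell in AGS (log2 -0.47, adjusted p = 0.0137 by edgeR) and in MKN1 (log2 -0.47, adjusted p = 0.0317), though the calls were lost in 4 and 8 of 21 alternatives. With the GC and length trend removed, the values were -0.14 in AGS (adjusted p = 0.325 by edgeR) and -0.31 in MKN1 (adjusted p = 0.0577).

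In MKN1 0 of the 20 were higher and 4 lower, against 2.8% and 3.9% of all tested genes, with a median of -0.14. RECK was at 13.3, 11.7 and 11.6 CPM untreated and 8.1, 5.54 and 4.91 CPM treated, and fell by 0.98 on the log2 scale (SE 0.20, adjusted p = 0.0155 by edgeR). No treated library reached an untreated one. Leaving out treated replicate 2 gave an adjusted p of 0.053 for RECK by edgeR, and MKN1 libraries alone gave 0.108. RECK thus rose in AGS and fell in MKN1, and the difference between the effects was -1.95 (SE 0.29, adjusted p = 0.0012 by edgeR). ST14, the surface protease matriptase, fell from 59.7 ± 9.1 to 38 ± 5.83 CPM in MKN1 (SD, n = 3; log2 -0.65, SE 0.14, adjusted p = 0.0167 by edgeR), and missed the threshold without untreated or treated replicate 2 (adjusted p = 0.063 and 0.0516). The difference also passed for PCSK5 (-0.88, adjusted p = 0.00958 by edgeR) and CTSB, which encodes cathepsin B (-0.66, adjusted p = 0.0277), the latter lost in 7 of 20 alternatives. TIMP2, which takes part in the activation of MMP2 by MMP14, did not pass in either line and was at 44.7 ± 3.51 CPM in untreated AGS and 483 ± 105 CPM in untreated MKN1 (SD, n = 3). In untreated MKN1 9 of the 20 were higher and 7 lower than in AGS, against 34.9% and 31.4% of all tested genes. CTSL was at 624 against 0.0131 CPM and SPINT2, an inhibitor of surface serine proteases, at 111 against 844 CPM. CTSL held at most 9 counts in any AGS library, so it entered the test through MKN1 and a difference was bound to be seen.

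**Figure D4:**
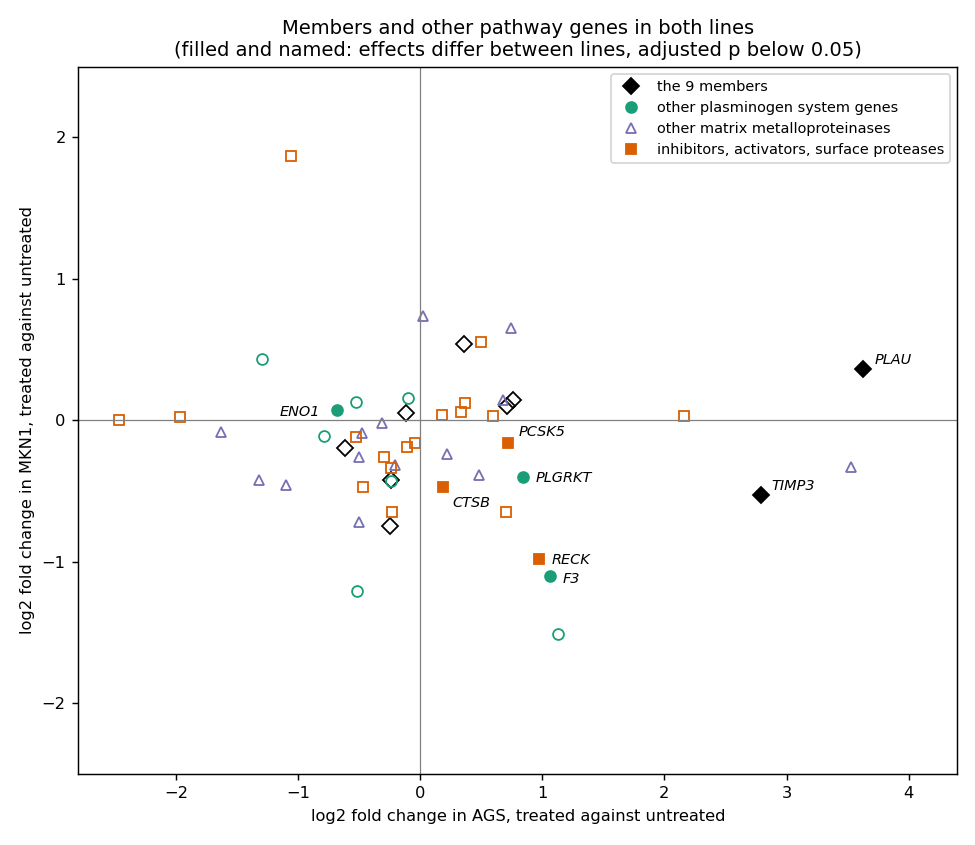
Log2 fold change in AGS (horizontal) against that in MKN1 (vertical) for the 9 members and the genes reported from the 3 other lists, filled and named where the effects differed between the lines at an adjusted p below 0.05. RECK (0.97 and -0.98) and F3 (1.06 and -1.10) lay in the lower right, and PLAU (3.63 and 0.36) and TIMP3 (2.79 and -0.53) at the far right.

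Over the 12 libraries, with each line's mean log2 CPM removed, PLAU and TIMP3 were each other's closest companions among the 9 members (Pearson r = 0.94). Among other genes, the pattern of PLAU was most like that of CLIC5 (r = 0.95) and SPDYE6 (r = 0.95), and that of TIMP3 most like ALMS1-IT1 (r = 0.92) and SNORA73B (r = 0.92). These coefficients describe the pattern only. The libraries share their depth across genes, much of the spread is the gap between the AGS groups at a few counts, and SPDYE6 belongs to a family of near-identical copies among which reads could be split.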

How the data were processed

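RNA-seq libraries of 2 gastric cancer lines were analysed from raw counts per gene, which the authors deposited without normalization for 32269 Ensembl identifiers in 12 columns. HISAT2 2.0.4 aligned the reads to hg38/GRCh38, per the submitters' processing notes. Not given in the sources used here are the counting tool, its strand setting and its annotation. Symbols were matched for 32069 identifiers, and 32136 had a position in GENCODE release 29.

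All libraries were fitted together with edgeR 4.0.16 in R 4.3.3 (filterByExpr over the 4 groups, 20280 genes, TMM factors, quasi-likelihood F tests with 8 residual degrees of freedom, Benjamini-Hochberg adjustment over all tested genes, threshold 0.05). CPM use totals times TMM factors. The model was run on simulated data with the same spread for all genes and both lines. The real libraries differed in spread (median SD of log2 CPM 0.14 to 0.15 in AGS and 0.27 in MKN1). The simulation therefore cannot check the calls made here. Intervals of count ratios and floors cover counting error only, since reads carry no molecular identifiers, whereas intervals of log2 fold changes come from the fit and its spread between libraries. Between libraries of the same replicate number the correlations of deviations were -0.04 to 0.15, highest for MKN1 replicate 3. Across different numbers they ran from -0.15 to 0.1. These values do not settle whether the numbers pair the libraries. No block was used in the main fit, and a block was an alternative. No 2 libraries agreed within sampling noise. The members and lists were chosen with earlier results of these data known. All 9 members were named whatever their values, and of each other list up to 3 genes per comparison by smallest adjusted p, with at least 1 CPM in a compared group; F3 in AGS, ENO1 in the difference, MMP11, KRT5 and KRT14 were added after their values were seen. MMP2 and TIMP2 were given by level throughout. A gene that the rule names is not reported here, and counts over the lists include it. Alternatives were DESeq2 1.42.0, limma 3.58.1 (voom), other scalings, filters and samples, each library left out, and a replicate block.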

Additional observations from a re-analysis of the deposited data

Results flagged for a closer look

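A test of the difference between the 2 treatment effects (MKN1 minus AGS, log2 scale, adjusted p by edgeR) passed for 8 of the genes named above. Genes outside the 9 members were named for passing tests, this one among them, so the 8 are not a share. Over the whole lists it passed for 2 of 9 members, 4 of 11 other plasminogen system genes and 0 of 14 other metalloproteinases. It also passed for 3 of 20 other inhibitors, activators and surface proteases, and for 15.7% of all tested genes. Among the 8 genes, 2 were members. Among the members these were PLAU, with -3.27 (3.63 in AGS, 0.36 in MKN1, adjusted p = 0.0105), and TIMP3, with -3.32 (2.79 in AGS, -0.53 in MKN1, adjusted p = 0.00452), both at or under 28 counts in every AGS library. TIMP3 passed the filter on low counts only through MKN1. Of the other plasminogen system genes, PLGRKT with -1.24 (0.84 and -0.40) and F3 with -2.16 (1.06 and -1.10) had lower effects in MKN1. ENO1 had a higher effect in MKN1, with 0.75 (-0.68 and 0.07). RECK with -1.95 (0.97 and -0.98), PCSK5 with -0.88 (0.72 and -0.16) and CTSB with -0.66 (0.19 and -0.47) had lower effects in MKN1. F3 and RECK passed in opposite directions in the 2 lines, F3 in MKN1 in 5 of 21 alternatives and RECK in MKN1 in 19 of 21.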

How the results depend on the processing

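Over all alternatives and comparisons, 696 member values kept direction and side of the threshold, 2 lost the call, 18 gained one and 29 changed sign, and of the other pathway values 449 were kept and 49 lost the call. Members higher in AGS numbered 2, 1 with limma voom and 3 with the DESeq2 test, with AGS alone and with the replicate block (PLAT, adjusted p = 0.00484 by edgeR), and 2 to 3 with a library left out (3 without MKN1 untreated or treated replicate 3). Members lower in AGS numbered 0, 1 with the AGS libraries alone and 1 with the replicate block (TIMP1, adjusted p = 0.0453 by edgeR), and 0 to 1 with a library left out. Members lower in MKN1 numbered 0, and 1 each (TIMP3) with the DESeq2 test, limma voom, the replicate block (adjusted p = 0.0442 by edgeR) and the GC and length trend removed, an alternative chosen after seeing the data. With a library left out, members higher and members lower in MKN1 were each 0 to 1. Members with a lower effect in MKN1 than in AGS numbered 2, 1 with limma voom and 3 with the replicate block (PLAT, -0.60, adjusted p = 0.0266 by edgeR).

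Of all genes, 4214 passed in AGS, 8369 with AGS alone and 2051 to 5533 with a library left out. In MKN1 1358 passed, 2459 with DESeq2, 809 with no filter, 34 with MKN1 alone and 336 to 3160 with a library left out. For the difference 3180 passed, and 2098 to 4646 with a library left out. With library totals the split of MKN1 calls was 754 higher and 544 lower against 567 and 791, and that of the difference 2032 and 1260 against 1700 and 1480.

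Signs changed only in values that had not passed. SERPINE2 in MKN1 was -0.02 with the GC and length trend removed. PLAUR between untreated lines (-0.05) was 0.02 with DESeq2 size factors, 0.02 with the DESeq2 test, 0.01 with a 5 CPM filter, 0.01 with the untreated libraries alone and 0.03 with the trend removed. With a library left out, SERPINE2 in AGS ran from -1.02 to 0.20 and MMP7 in AGS from -0.76 to 0.01. In MKN1 PLAT ran from -0.14 to 0.46, SERPINE2 from -0.18 to 0.21, MMP1 from -0.50 to 0.73 and TIMP1 from -0.54 to 0.13. For the difference PLAUR ran from -0.01 to 0.39, SERPINE2 from -0.16 to 1.07, MMP1 from -1.20 to 0.02 and MMP7 from -0.93 to 0.01, and PLAUR between untreated lines from -0.17 to 0.05. The cause of these changes was not tested. The replicate block rests on shared numbers only. PLAU, SERPINE2 and TIMP3 in AGS rest on 0 to 28 counts a library, which limits their precision.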
